A study of Mus musculus with 6 samples.

Results

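The genes that carry out or restrain apoptosis were examined in the irradiated jejunum of mice treated with NeuroD-EGFP or with EGFP. The set holds 39 genes chosen by their known function: the BCL2 family, caspases, inhibitors of apoptosis, death receptor adaptors and mitochondrial factors. Earlier results of these data were known when the set was chosen. All array probes that the platform annotation assigns to these genes under current or earlier symbols were taken, which gave 88 of 45281 probes. No probe is named here for Naip1, Naip6, Ripk1 or Endog, so these 4 genes have no value. The remaining 35 genes all had at least 1 probe that passed the filter on dim probes, and 65 of the 88 probes passed it.

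NeuroD-EGFP mice 1 to 3 and EGFP mice 1 to 3 were male C57BL/6J animals aged 8 weeks. All 6 received 9 Gy of total body irradiation and then, without delay, 100 µl of 0.1 mM protein by intraperitoneal injection. NeuroD-EGFP is a fusion of NeuroD, a bHLH (basic helix-loop-helix) regulator of transcription in neurons and endocrine cells, with enhanced green fluorescent protein, and was made in bacteria. EGFP alone was the control protein. Jejunum was taken at 12 h and its RNA was read on Illumina Mouse WG-6 beadchips, with 1 array for each mouse. No unirradiated mouse was part of the comparison, so it addresses what the fusion protein changed after irradiation and not what irradiation changed.

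In the mitochondrial pathway of apoptosis, BH3-only proteins sense damage and restrain the anti-apoptotic BCL2 proteins, which frees effectors of the BAX and BAK type to open the outer mitochondrial membrane. Cytochrome c then joins APAF1 to activate initiator caspases, which cleave executioner caspases, while IAP proteins hold caspases in check and are themselves countered by DIABLO and HTRA2. In the death receptor pathway, ligand-bound receptors recruit FADD and caspase-8 instead, and in the irradiated intestine it is the crypt cells, progenitors included, that are best known for early apoptosis. Much of this control acts on proteins by cleavage, binding and location, which an RNA measurement does not read.

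Values are log2 intensities after background correction and quantile normalization, and each gene is represented by its brightest tested probe. A log2 fold change is the mean of the NeuroD-EGFP mice minus the mean of the EGFP mice, given with its standard error (SE), and p-values are from limma, adjusted by Benjamini-Hochberg over all 19099 tested probes. A probe counted as detected on an array at a detection p-value under 0.05. Levels of different probes were not set against each other. The tissue was whole jejunum, in which fewer cells of a type and less RNA in each cell cannot be told apart.

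The arrays differed among themselves. Detected probes numbered 18619 to 19290 in NeuroD-EGFP mice and 18271 to 20408 in EGFP mice. EGFP mouse 3 stood apart: 180 genes lay more than 1 log2 unit below every other mouse in it and 111 lay above, against 46 below and 40 above in EGFP mouse 1, and at most 5 in either direction in each of the other 4 mice. Enterocyte markers, of which 9 of 10 were tested, had a mean deviation of 0.24 to 0.31 in NeuroD-EGFP mice and of 0.22, 0.47 and -1.51 in EGFP mice 1 to 3. Lct, the lactase of the jejunal brush border, had log2 values of 12.94, 12.95 and 13.26 in NeuroD-EGFP mice and 12.14, 12.95 and 4.56 in EGFP mice, and was not detected in EGFP mouse 3. Without Lct the enterocyte deviation of EGFP mouse 3 was -0.84, and the markers were uneven in it. Of the 9 markers, 6 were lowest in EGFP mouse 3. Lct, Apoa4 and Fabp1 lay more than 1 log2 unit below every other mouse. Alpi was 10.85 against 11.72 in the next lowest mouse, Slc5a1 was 12.45 against 12.99, and Apoa1 was 14.33 against 14.36. Vil1 and Sis lay within the range of the others, and Anpep was the highest of the 6 mice. Smooth muscle markers (6 of 7 tested) had deviations of 0.03 to 0.18 in NeuroD-EGFP mice and -0.50, -0.69 and 0.95 in EGFP mice, and Paneth cell markers (6 of 9 tested) had 0.22 to 0.39 in NeuroD-EGFP mice and -0.89, -0.81 and 0.80 in EGFP mice. Interferon-stimulated genes (11 of 14 tested) had -0.83 to -0.21 in NeuroD-EGFP mice and 1.65, 0.21 and -0.31 in EGFP mice. The part of these differences in the results below was not tested, and results that rest on EGFP mouse 3 or EGFP mouse 1 are given with and without that mouse.

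Across the whole set the data showed little difference between NeuroD-EGFP and EGFP mice. None of the 35 genes passed an adjusted p of 0.05, as none of all 10777 genes did (0%), and the smallest adjusted p of a member was 0.917. At limma's unadjusted p under 0.05, 1 member was higher (Bok) and 1 was lower (Api5), or 5.71% of the 35, beside 4.76% of all genes, of which 2.20% were higher and 2.56% lower. The log2 fold changes were positive for 17 members and negative for 18, with a median of -0.04 and a range of -0.36 to 0.75, and over all genes 50.8% were positive with a median of 0.0047. The 3 NeuroD-EGFP mice lay above all 3 EGFP mice for 2 members (Cflar and Naip2) and below them for 3 (Bcl2l11, Casp2 and Api5), while such separation was found in 5.44% of all genes upward and 5.93% downward. These shares were close to the background of all genes.

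**Figure D1:**
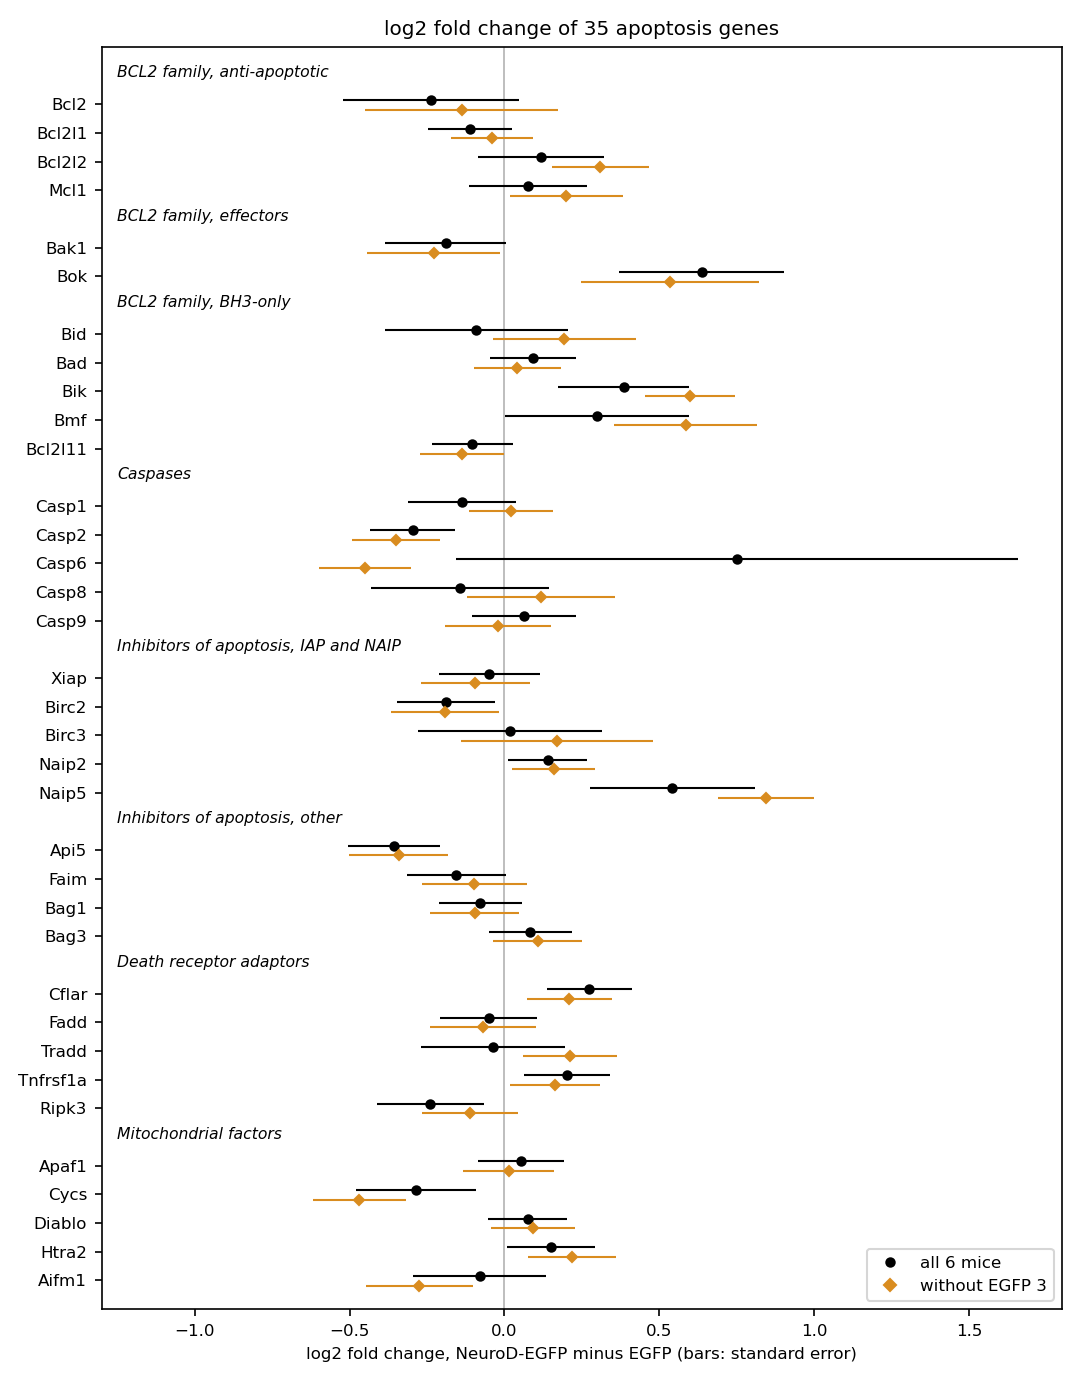
Log2 fold change (NeuroD-EGFP minus EGFP, horizontal axis) of each of the 35 tested genes by class, over all 6 mice (black circles) and without EGFP mouse 3 (orange diamonds), with bars of 1 SE. Over all mice the estimates lie between -0.36 and 0.75, and Casp6, which has the widest bar (SE 0.91), lies at 0.75 with EGFP mouse 3 and at -0.45 without it.

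By class, the median log2 fold change was 0.08 over the 11 tested BCL2 family genes, -0.14 over the 5 caspases, -0.05 over the 9 tested inhibitors of apoptosis, -0.04 over the 5 tested death receptor adaptors and 0.05 over the 5 tested mitochondrial factors. The mean deviation of the BCL2 family was 0.06, -0.01 and 0.07 in NeuroD-EGFP mice 1 to 3, against -0.15, -0.12 and 0.15 in EGFP mice 1 to 3. For caspases it was -0.01, 0.02 and 0.06 in NeuroD-EGFP mice, against 0.21, 0.11 and -0.39 in EGFP mice. In each of these 5 classes the groups overlapped. Within the inhibitors, the 4 genes outside the IAP and NAIP families (Api5, Faim, Bag1 and Bag3) had 0.0309, -0.13 and -0.09 in NeuroD-EGFP mice, against 0.0403, 0.0468 and 0.10 in EGFP mice. These groups did not overlap, by a margin smaller than the spread within either of them.

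**Figure D2:**
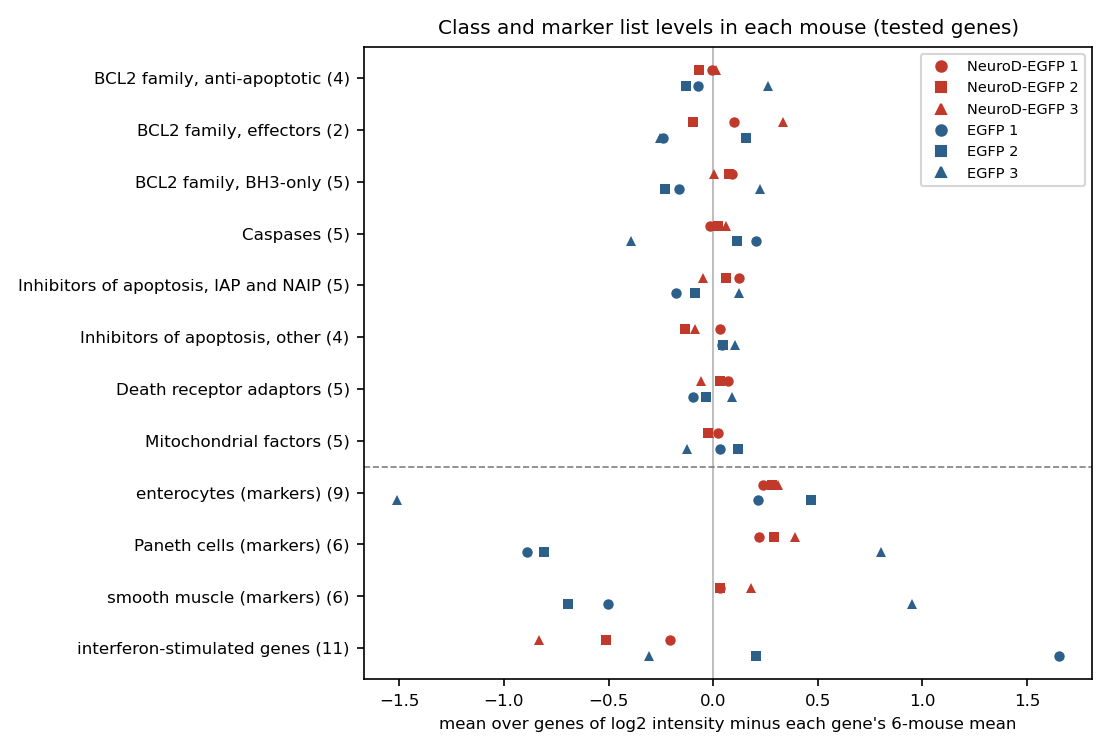
Mean deviation of each class from the 6-mouse mean of its genes (log2 units), with NeuroD-EGFP mice (red) drawn above EGFP mice (blue), 1 point for each mouse, the number of tested genes in brackets and marker lists under the dashed line. EGFP mouse 3 is the lowest caspase value at -0.39 and the lowest enterocyte value at -1.51, and only among the other inhibitors are the groups of a class apart.

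The promoter sequence is shown for the 3 genes on which the description turns: the 2 members with an unadjusted p under 0.05, and Casp6, whose value in EGFP mouse 3 is described further on. Factors of the bHLH class such as NeuroD bind E-boxes, with the letters CANNTG, which read the same on both strands. The RefSeq promoter table (GRCm38.p6) was searched over the 250 bases before each gene's start, and capitals mark each CANNTG. Bok (chr1:93685325-93685574, plus strand) held 0, Api5 (chr2:94438187-94438436, minus strand) held 1, and Casp6 (chr3:129901165-129901414, plus strand) held 2.
Bok: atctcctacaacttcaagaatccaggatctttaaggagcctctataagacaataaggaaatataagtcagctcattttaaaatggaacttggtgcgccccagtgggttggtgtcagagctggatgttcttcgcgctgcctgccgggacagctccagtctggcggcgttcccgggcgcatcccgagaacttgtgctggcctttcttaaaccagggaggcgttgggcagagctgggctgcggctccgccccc
Api5: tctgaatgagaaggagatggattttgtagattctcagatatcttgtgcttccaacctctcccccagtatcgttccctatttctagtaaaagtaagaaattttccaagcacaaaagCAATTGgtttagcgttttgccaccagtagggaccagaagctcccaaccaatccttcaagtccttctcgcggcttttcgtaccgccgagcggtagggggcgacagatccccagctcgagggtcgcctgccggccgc
Casp6: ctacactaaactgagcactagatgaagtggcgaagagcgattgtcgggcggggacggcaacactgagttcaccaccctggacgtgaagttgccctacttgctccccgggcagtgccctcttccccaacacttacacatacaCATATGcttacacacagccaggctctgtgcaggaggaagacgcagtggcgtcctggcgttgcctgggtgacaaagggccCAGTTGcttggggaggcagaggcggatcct
A CANNTG was found in 28 of 46 windows of the members (60.9%) and in 21750 of all 32841 windows (66.2%). The narrower CAGATG, or CATCTG on the other strand, was found in 4 of 46 windows of the members (8.7%), against 14.4% of all windows. A match describes the letters and not a bound site, and binding was not measured.

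Among the anti-apoptotic BCL2 proteins, which hold effectors and BH3-only proteins, no gene stood apart between the groups. Bcl2, the founding member of the family, had log2 values of 6.49, 6.06 and 6.30 in NeuroD-EGFP mice, against 6.95, 5.89 and 6.72 in EGFP mice. The difference was -0.24 (SE 0.28), and 2 further Bcl2 probes gave -0.27 and -0.39, all with overlapping groups. The difference was -0.02 without EGFP mouse 1, -0.55 (limma's unadjusted p = 0.026) without EGFP mouse 2 and -0.14 without EGFP mouse 3, and the probe at -0.39 was detected in 1 NeuroD-EGFP mouse and 3 EGFP mice. Mcl1, a short-lived survival protein of many cell types, had 11.50, 11.51 and 11.51 in NeuroD-EGFP mice, against 11.05, 11.56 and 11.68 in EGFP mice. The log2 fold change of Mcl1 was 0.08 (SE 0.19) here and -0.19 in the authors' unscaled log2 values, in which the median of all tested probes was itself shifted by -0.27. Mcl1 was thus nearly even among the NeuroD-EGFP mice (SD 0.007, n = 3) and spread over the EGFP mice (SD 0.33, n = 3). Bcl2l1, which encodes BCL-XL, and Bcl2l2, which encodes BCL-W, differed by -0.11 and 0.12. Bcl2l2 differed by -0.04 without EGFP mouse 1 and by 0.31 without EGFP mouse 3.

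Of the effectors, which form the pore in the outer mitochondrial membrane, Bok had the lowest p in the BCL2 family. Bok had log2 values of 8.91, 9.12 and 9.41 in NeuroD-EGFP mice, against 8.16, 9.07 and 8.30 in EGFP mice. EGFP mouse 2 lay inside the NeuroD-EGFP range, and the other 2 EGFP mice lay below it. The mean was 9.15 ± 0.25 in NeuroD-EGFP mice and 8.51 ± 0.49 in EGFP mice (SD, n = 3 each), a log2 fold change of 0.64 (SE 0.27) or 1.55-fold, with limma's unadjusted p = 0.0473 and adjusted p = 0.917. The estimate was 0.53 (limma's unadjusted p = 0.108) without EGFP mouse 3 and 0.46 (limma's unadjusted p = 0.147) without EGFP mouse 1. Among the 6 omissions it was largest, 0.91, without EGFP mouse 2, and it missed 0.05 also without NeuroD-EGFP mouse 2 or 3 (limma's unadjusted p = 0.0935 and 0.145). The second Bok probe did not pass the filter. Bak1, the constitutive mitochondrial effector, had 7.17, 6.56 and 7.13 in NeuroD-EGFP mice, against 7.24, 7.13 and 7.06 in EGFP mice, a difference of -0.19 (SE 0.20). NeuroD-EGFP mouse 2 was the low value, and without it the difference was 0.0071.

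The BH3-only genes, whose proteins trigger the pathway, gave log2 fold changes of -0.10 to 0.38 over 5 members, 3 of them positive. Bik, which encodes a BH3-only protein of the endoplasmic reticulum, had 5.84, 5.78 and 5.77 in NeuroD-EGFP mice, against 5.32, 5.07 and 5.84 in EGFP mice. The difference was 0.38 (SE 0.21), and the probe was detected in 3 NeuroD-EGFP mice and in 1 EGFP mouse. That EGFP mouse was mouse 3, which was level with the NeuroD-EGFP mice. The Bik probe thus passed the filter through the group where it was higher, and no test is read from it. Bmf, a BH3-only gene linked to loss of anchorage, was detected in 2 NeuroD-EGFP mice and 1 EGFP mouse, again mouse 3, and differed by 0.30 (SE 0.30), or by 0.06 without EGFP mouse 1. Bcl2l11, which encodes the potent BH3-only protein BIM, had 7.87, 7.95 and 7.93 in NeuroD-EGFP mice, against 7.99, 8.12 and 7.95 in EGFP mice. Its groups did not overlap, but NeuroD-EGFP mouse 2 and EGFP mouse 3 agreed to 2 decimals, the difference was -0.10 (SE 0.13), and a second Bcl2l11 probe gave 0.44 with overlapping groups. Bid, which links caspase-8 to mitochondria, and Bad, a partner of BCL-XL, differed by -0.09 and 0.09. Without EGFP mouse 3, Bid differed by 0.19.

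**Figure D3:**
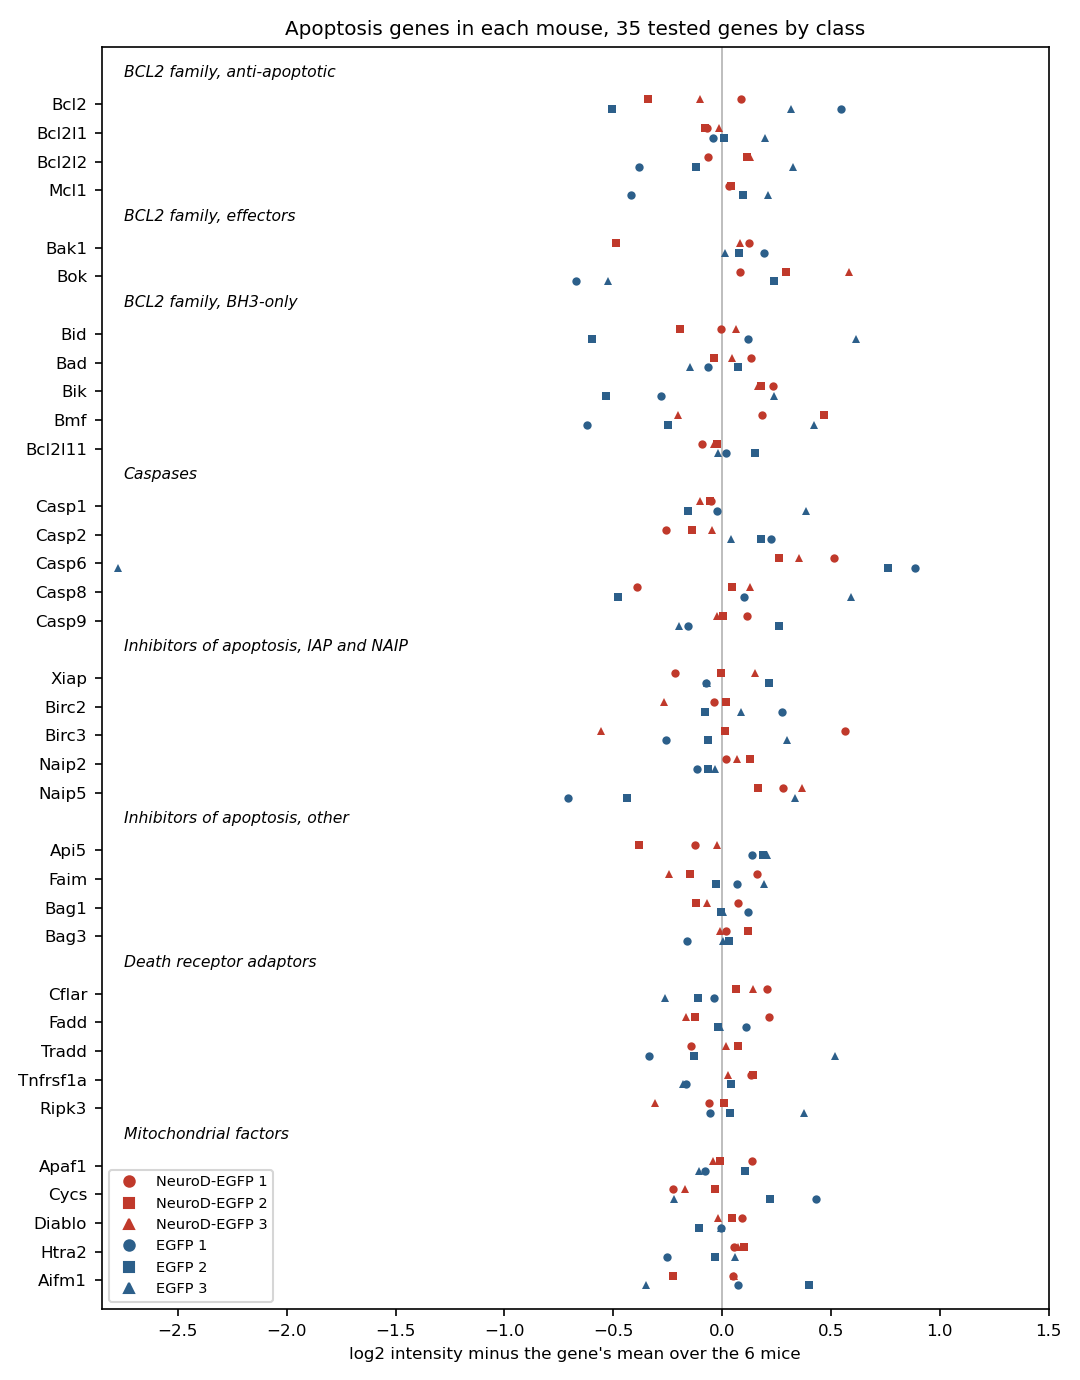
Log2 value of each tested gene in each mouse, given as the deviation from the gene's mean over the 6 mice and grouped by class, with NeuroD-EGFP mice drawn above EGFP mice and the marker shape giving the mouse number. The NeuroD-EGFP mice lie closer together than the EGFP mice for 26 of 35 genes, and Casp6 in EGFP mouse 3 is the point farthest from 0.

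Casp6 had the widest spread of any member. It encodes an executioner caspase that cleaves nuclear lamins, and it was added to the named genes after its values had been seen. Casp6 had log2 values of 11.83, 11.57 and 11.66 in NeuroD-EGFP mice, against 12.20, 12.07 and 8.53 in EGFP mice. NeuroD-EGFP mice thus lay below EGFP mice 1 and 2 and far above EGFP mouse 3, which was 3.04 below the lowest of the other 5 mice. The deposited signals show the same split: 3534.3, 2739.3 and 2703.3 in NeuroD-EGFP mice, against 5705, 4677.5 and 360.9 in EGFP mice. A second Casp6 probe had 11.34, 11.07 and 10.91 in NeuroD-EGFP mice, against 11.69, 11.34 and 7.75 in EGFP mice, so the low value in EGFP mouse 3 was read by both probes.

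The sign of the Casp6 estimate turned on this mouse. With all 6 mice the log2 fold change was 0.75 (SE 0.91, limma's adjusted p = 0.954). Without EGFP mouse 3 it was -0.45 (SE 0.15), with an unadjusted p of 0.0203 and an adjusted p of 0.273 from limma. Without EGFP mouse 1 it was 1.38. Casp6 was the only member more than 1 log2 unit below all other mice in EGFP mouse 3, and it ranked 16 of 10777 genes by the size of this gap. Lct (7.58) ranked first, and Apoa4 (3.29) and Apoc3 (3.15), which encode apolipoproteins, and Rbp2 (3.36), which encodes a retinol-binding protein, were also among the first 16; all 4 are genes of absorptive enterocytes. These genes were picked from those lowest in EGFP mouse 3. Of the 9 tested enterocyte markers, 6 were lowest in that mouse, while Vil1, Sis and Anpep were not. Whether the low Casp6 goes with the low values of Lct, Apoa4, Apoc3 and Rbp2 was not tested.

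The initiator and inflammatory caspases differed less. Casp2, an initiator tied to DNA damage through the PIDD complex, had 10.18, 10.30 and 10.39 in NeuroD-EGFP mice, against 10.67, 10.62 and 10.48 in EGFP mice. The groups did not overlap, and the difference was -0.30 (SE 0.14, limma's unadjusted p = 0.0679, adjusted p = 0.917). A second Casp2 probe ran the other way, with 6.05, 6.19 and 6.57 in NeuroD-EGFP mice, against 5.61, 5.87 and 6.13 in EGFP mice, a difference of 0.40 (SE 0.20). The direction of Casp2 therefore depended on the probe. Casp8, the initiator of the death receptor pathway, had 10.15, 10.59 and 10.67 in NeuroD-EGFP mice, against 10.64, 10.06 and 11.13 in EGFP mice. Its difference of -0.14 (SE 0.29) became 0.12 without EGFP mouse 3, the highest of the 6. Casp9, the initiator that APAF1 activates, had 8.91, 8.80 and 8.77 in NeuroD-EGFP mice, against 8.64, 9.05 and 8.59 in EGFP mice. Its difference was 0.06 (SE 0.17), -0.20 in the authors' unscaled values and -0.13 for a second probe. Casp1, which matures interleukins in inflammasomes, had 12.41, 12.41 and 12.36 in NeuroD-EGFP mice, against 12.44, 12.31 and 12.85 in EGFP mice, a difference of -0.14 (SE 0.17). EGFP mouse 3 was again the high value, and without it the difference was 0.02.

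The IAP and NAIP genes held the member with the lowest adjusted p once EGFP mouse 3 was left out. Naip5, which in mice encodes a sensor of bacterial flagellin for the NLRC4 inflammasome and carries the BIR domain of the IAP family, had 10.40, 10.28 and 10.49 in NeuroD-EGFP mice, against 9.41, 9.68 and 10.45 in EGFP mice. EGFP mice 1 and 2 were low and EGFP mouse 3 lay within the NeuroD-EGFP range. The difference was 0.54 (SE 0.27) or 1.46-fold, with an unadjusted p of 0.0809 and an adjusted p of 0.917 from limma. Without EGFP mouse 3 it was 0.84 (SE 0.16, adjusted p = 0.129), and without EGFP mouse 1 it was 0.32. A second Naip5 probe had 5.79, 6.13 and 5.98 in NeuroD-EGFP mice, against 5.33, 5.40 and 6.29 in EGFP mice, with a difference of 0.29 (SE 0.27) and the same mouse high. It was detected in all 3 NeuroD-EGFP mice and, of the EGFP mice, in mouse 3. This probe thus passed the filter through the group where it was higher, and no support is read from it. Naip2, a sensor of the bacterial secretion rod in mice, had 8.56, 8.67 and 8.61 in NeuroD-EGFP mice, against 8.43, 8.48 and 8.51 in EGFP mice. Its groups did not overlap, by a small difference of 0.14 (SE 0.13). The deposited signals, not scaled between arrays, did overlap: 353.9, 359.5 and 313 in NeuroD-EGFP mice, against 401.9, 358.3 and 353.8 in EGFP mice. The mouse Naip genes are near-identical neighbours, so a probe named for one may also read another.

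Xiap, whose protein binds and blocks caspases directly, had 5.63, 5.85 and 6.01 in NeuroD-EGFP mice, against 5.78, 6.07 and 5.78 in EGFP mice. The difference was -0.05 (SE 0.16). A dimmer Xiap probe had 5.43, 5.56 and 5.13 in NeuroD-EGFP mice, against 5.95, 5.80 and 5.62 in EGFP mice, with a difference of -0.42 (SE 0.17). It was detected in 1 NeuroD-EGFP mouse and 3 EGFP mice, so it passed the filter through the group where it was higher, and no test is read from it. Birc2, which encodes the ubiquitin ligase cIAP1, had 9.82, 9.87 and 9.59 in NeuroD-EGFP mice, against 10.13, 9.77 and 9.94 in EGFP mice, a difference of -0.19 (SE 0.16). Its 3 other tested probes gave 0.0078, 0.06 and 0.10, so no direction held over the probes. Birc3, which encodes cIAP2 and is a target of NF-κB, had 6.37, 5.82 and 5.25 in NeuroD-EGFP mice, against 5.55, 5.74 and 6.10 in EGFP mice. It was detected in 2 NeuroD-EGFP mice and all 3 EGFP mice and differed by 0.02 (SE 0.30), or by -0.43 in the authors' unscaled values.

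Among the other inhibitors, Api5 was the only member with an unadjusted p under 0.05 in the lower direction. Api5, a nuclear inhibitor of apoptosis, had 5.50, 5.24 and 5.60 in NeuroD-EGFP mice, against 5.76, 5.81 and 5.83 in EGFP mice. The groups did not overlap, with means of 5.45 ± 0.18 in NeuroD-EGFP mice and 5.80 ± 0.035 in EGFP mice (SD, n = 3 each). The log2 fold change was -0.36 (SE 0.15), or 1.28-fold lower, with limma's unadjusted p = 0.0458 and adjusted p = 0.917. The probe was dim: it was detected in 2 NeuroD-EGFP mice and all 3 EGFP mice. Without EGFP mouse 3 the difference was -0.34 (limma's unadjusted p = 0.0717). Of the 6 omissions of a mouse, only that of NeuroD-EGFP mouse 3 kept it under 0.05 (limma's unadjusted p = 0.0479). Faim, Bag1 and Bag3, which encode an inhibitor of FAS signalling and 2 chaperone cofactors, differed by -0.16, -0.08 and 0.08.

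**Figure D4:**
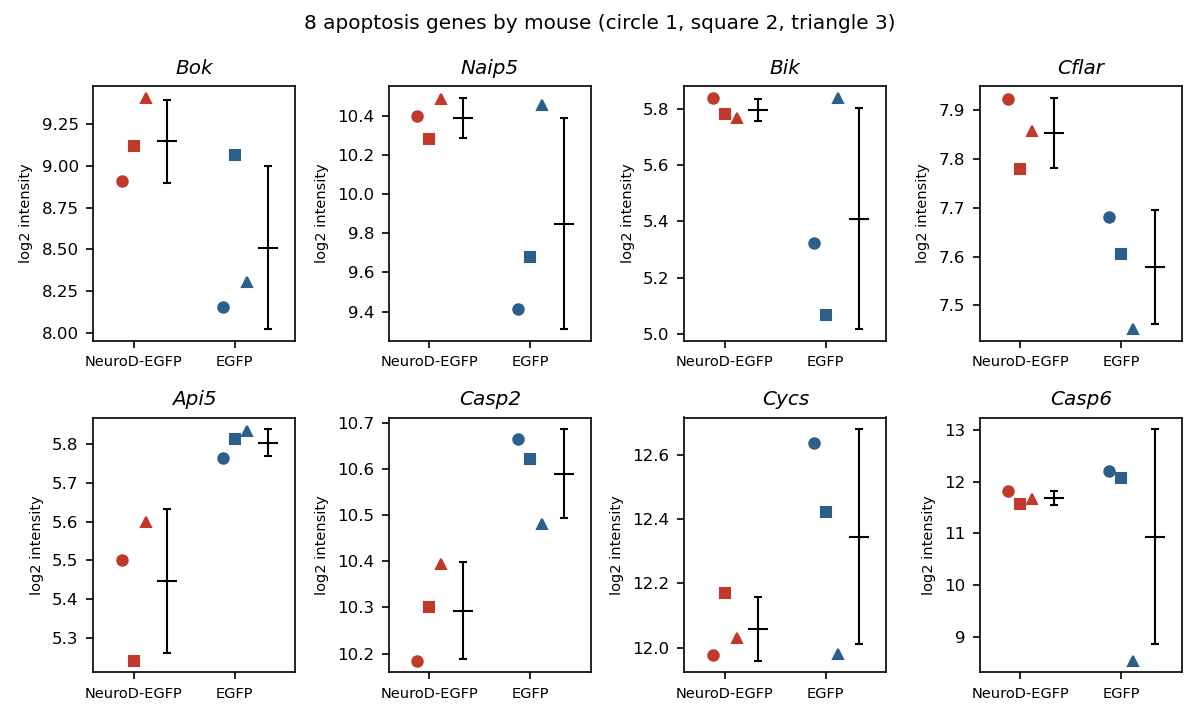
Log2 intensity in each mouse for 8 genes, with NeuroD-EGFP mice (red) left of EGFP mice (blue) and each group's mean ± SD (n = 3) beside its points. Axes differ between panels and do not start at 0. The groups are separate for Api5, Casp2 and Cflar, and for Casp6 the 3 NeuroD-EGFP mice lie below EGFP mice 1 and 2 (12.20 and 12.07) and above EGFP mouse 3 (8.53).

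Of the death receptor adaptors, Cflar had the lowest p. It encodes cFLIP, the catalytically inactive relative of caspase-8 that holds it back at death receptors. Cflar had 7.92, 7.78 and 7.86 in NeuroD-EGFP mice, against 7.68, 7.61 and 7.45 in EGFP mice. All 3 NeuroD-EGFP mice lay above all 3 EGFP mice, by 0.27 on average (SE 0.14, limma's unadjusted p = 0.0846, adjusted p = 0.917). The difference was 0.21 without EGFP mouse 3 and 0.32 without EGFP mouse 1. In the authors' unscaled values it was 0.0138, and there the groups overlapped. Tnfrsf1a, the main receptor of TNF, had 8.18, 8.19 and 8.08 in NeuroD-EGFP mice, against 7.88, 8.09 and 7.87 in EGFP mice. Its difference was 0.20 (SE 0.14) here and -0.06 in the authors' unscaled values, and 2 further probes gave 0.14 and 0.30. Ripk3, the kinase that starts necroptosis, had 7.64, 7.70 and 7.39 in NeuroD-EGFP mice, against 7.64, 7.73 and 8.07 in EGFP mice, a difference of -0.24 (SE 0.17). The first and second mice of either group were nearly level, and the third mice were apart. The Ripk3 difference was -0.11 without EGFP mouse 3 and -0.33 without EGFP mouse 1. Fadd, the adaptor that binds caspase-8, differed by -0.05, and its 3 other probes by -0.08, 0.17 and 0.31. Tradd, the adaptor of TNF receptors, differed by -0.04, by 0.21 without EGFP mouse 3 and by -0.21 without EGFP mouse 1.

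The mitochondrial factors showed differences of -0.29 to 0.15. Cycs, which encodes cytochrome c of the respiratory chain, had 11.98, 12.17 and 12.03 in NeuroD-EGFP mice, against 12.63, 12.42 and 11.98 in EGFP mice. EGFP mice 1 and 2 were high and EGFP mouse 3 was level with the NeuroD-EGFP mice. The difference was -0.29 (SE 0.19, limma's adjusted p = 0.928), and -0.47 (SE 0.15, adjusted p = 0.259) without EGFP mouse 3 and -0.14 without EGFP mouse 1. The other Cycs probes both gave -0.34, so the direction was shared by all 3 probes. Apaf1, the scaffold of the apoptosome, had 10.22, 10.08 and 10.05 in NeuroD-EGFP mice, against 10.01, 10.20 and 9.98 in EGFP mice. It differed by 0.05 (SE 0.14), by 0.04 and 0.0074 for its other probes and by -0.21 in the authors' unscaled values. Diablo and Htra2, whose proteins relieve the block by IAPs, differed by 0.07 and 0.15, and Aifm1, a flavoprotein that can act on DNA once released, by -0.08.

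Several probes were available for many of these genes, and they often ran apart. Of the 19 genes with at least 2 tested probes, 9 had 1 sign over all their probes and 10 had both signs. Bcl2, Casp6, Casp8, Naip5, Tnfrsf1a, Apaf1 and Cycs were among those with 1 sign. Casp2, Casp9, Birc2 and Bcl2l11 were among those with both. A dim Bcl2 probe and a dim Xiap probe were each detected in 1 NeuroD-EGFP mouse and 3 EGFP mice. The dimmer Naip5 probe was detected in 3 NeuroD-EGFP mice and 1 EGFP mouse. Each passed the filter through the group where it was higher, so a sign shared with it is not read as support.

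The members were also compared by how closely the mice of a group lay together. The median SD over the 35 members was 0.11 in NeuroD-EGFP mice and 0.18 in EGFP mice (n = 3 each), and over all genes it was 0.14 in NeuroD-EGFP mice and 0.26 in EGFP mice. The SD was larger in EGFP mice for 26 of 35 members (74.3%), the same share as over all genes (74.3%). The wider spread among EGFP mice was thus no more frequent in the apoptosis genes than in the array as a whole.

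Leaving out EGFP mouse 3 changed which members had a low p, though again none passed the adjusted threshold. At limma's unadjusted p under 0.05, 3 members were then higher (Bik, Bmf and Naip5) and 3 lower (Casp2, Casp6 and Cycs), and neither Bok nor Api5 was among them. Bik and Bmf were detected in neither of the 2 remaining EGFP mice, so nothing is read from these calls. Of all genes 14.0% had an unadjusted p under 0.05 without that mouse, 7.26% higher and 6.71% lower. Among all genes 16 then passed an adjusted p of 0.05 (0.148%), none of them a member, and the smallest adjusted p of a member was 0.129 (Naip5). The log2 fold change of 6 members turned in sign without EGFP mouse 3 (Bid, Casp1, Casp6, Casp8, Casp9 and Tradd). That of 4 turned without EGFP mouse 1 (Bcl2l2, Mcl1, Casp9 and Birc3). With EGFP mouse 1 left out, 0 members had an unadjusted p under 0.05 in limma, beside 3.52% of all genes (1.53% higher and 1.99% lower).

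Genes that stand next to these in the pathways were taken from 5 further lists, and none of them passed an adjusted p of 0.05 either. Among the other caspases and caspase substrates, 12 of 15 were tested, 6 with a positive and 6 with a negative difference, and 0 had an unadjusted p under 0.05 in limma. Gsdmd, the pore-forming substrate of inflammatory caspases, had 12.54, 12.60 and 12.50 in NeuroD-EGFP mice, against 12.32, 12.38 and 11.67 in EGFP mice. Its groups did not overlap, beside 5.44% of all genes apart in this direction. The difference of 0.42 (SE 0.21) was 0.20 without EGFP mouse 3. Parp1, a DNA repair enzyme that caspases cleave, differed by -0.27 (SE 0.17), or by -0.13 without EGFP mouse 3. Of the other BCL2-related genes 15 of 20 were tested, 9 positive and 6 negative with 0 at an unadjusted p under 0.05. Vdac2 (0.21), a channel of the outer mitochondrial membrane, and Bcl2l12 (0.17) had the lowest p. Without EGFP mouse 3 they differed by 0.09 and 0.08. All 4 tested genes among the 9 further IAP genes and regulators had negative differences, with 0 under 0.05. The lowest p belonged to Arel1 (-0.23), a ubiquitin ligase, and Usp11 (-0.38), a deubiquitinase. The Usp11 probe was dim, detected in 1 NeuroD-EGFP mouse and 2 EGFP mice, and no test is read from it.

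The death ligand and receptor list had 14 of 18 genes tested, 4 positive and 10 negative. At limma's unadjusted p under 0.05, 2 were lower and 0 higher, beside 2.56% and 2.20% of all genes. The NeuroD-EGFP mice lay below all EGFP mice for 3 of the 14, beside 5.93% of all genes. Tnfrsf21, which encodes death receptor DR6, had 8.01, 8.12 and 8.27 in NeuroD-EGFP mice, against 8.52, 8.57 and 9.25 in EGFP mice. The groups did not overlap, and the difference was -0.65 (SE 0.22, limma's unadjusted p = 0.0222, adjusted p = 0.917). It was -0.41 (limma's unadjusted p = 0.0275) without EGFP mouse 3 and -0.78 (limma's unadjusted p = 0.0175) without EGFP mouse 1. Fas, the death receptor that p53 induces after DNA damage, had 8.98, 8.87 and 8.92 in NeuroD-EGFP mice, against 9.44, 9.33 and 9.09 in EGFP mice. It too did not overlap, with a difference of -0.36 (SE 0.15, limma's unadjusted p = 0.0427, adjusted p = 0.917). This was -0.46 (limma's unadjusted p = 0.0121) without EGFP mouse 3 and -0.29 (limma's unadjusted p = 0.119) without EGFP mouse 1. Of all genes, 14.0% had an unadjusted p under 0.05 in limma without EGFP mouse 3, and 3.52% without EGFP mouse 1.

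In the necroptosis and inflammasome list 10 of 12 genes were tested, 3 positive and 7 negative. At limma's unadjusted p under 0.05, 1 was lower and 0 higher, beside 2.56% and 2.20% of all genes. The lower gene was Mlkl, which encodes the membrane-breaking protein that RIPK3 activates. It was also the 1 gene of this list whose groups did not overlap, beside 5.93% of all genes downward. Mlkl had 7.85, 7.47 and 7.31 in NeuroD-EGFP mice, against 9.43, 8.25 and 8.04 in EGFP mice. All 3 NeuroD-EGFP mice lay below all 3 EGFP mice, with a difference of -1.03 (SE 0.37, limma's unadjusted p = 0.0254, adjusted p = 0.917). It was -0.60 (limma's unadjusted p = 0.0288) without EGFP mouse 1 and -1.29 (limma's unadjusted p = 0.00802) without EGFP mouse 3. Zbp1, a nucleic acid sensor that engages RIPK3, had 6.59, 6.22 and 6.00 in NeuroD-EGFP mice, against 6.83, 7.08 and 6.36 in EGFP mice. The difference was -0.49 (SE 0.24), -0.45 without EGFP mouse 1 and -0.685 without EGFP mouse 3. Both genes are known to be induced by interferon, and the interferon-stimulated genes as a list stood at 1.65 in EGFP mouse 1, the highest of the 6 mice. The part of this in the values of Mlkl and Zbp1 was not tested.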

How the data were processed

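Jejunum RNA of 6 mice was measured with 1 Illumina Mouse WG-6 array each, and groups follow the submitters' labels. The authors deposited intensities, already background-subtracted, of which 24.4% to 26.1% lie at or below 0, and deposited a detection p-value beside each. A second deposited table holds log2 values. They match the log2 of these intensities to within 1.23e-06 and are 4 where the signal is at or below 0. Neither table is scaled between arrays. The scanner software is not given in the sources used here.

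Intensities were converted in R 4.3.3 by the neqc function of limma, version 3.58.1 (offset 16, with quantile normalization). The filter on dim probes asked for detection (p-value under 0.05) by 3 or more of 6 arrays and left 19099 of 45281. The platform annotation, updated through RefSeq (GRCm38.p6), gave 1 symbol to 34885 probes, several to 18 and none to 10378. Groups were compared with lmFit and eBayes, which pools the spread across probes. An exact permutation test of 3 mice against 3 cannot go below p = 0.1, two-sided. The labels number samples and do not say more of how the mice were kept, so p-values measure the spread between these samples only, and 6 arrays limit the precision. Values in every mouse are given for members with an unadjusted p under 0.05, the member of lowest p in each class and members chosen for their role. From each neighbouring list the 2 genes of lowest p are named. A list's deviation is the mean over its genes of the value minus the gene's mean over the 6 mice. Members, lists and rules were chosen with earlier results of these data known. The fit was tested on simulated data. Alternatives covered the authors' log2 values, 75th percentile scaling, an offset of 50, the filter, a replicate block, array weights, the methods' t-test (equal variances), averaging the probes of a gene and the omission of single mice. A block by beadchip was not run, as the labels and columns name none.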

Additional observations from a re-analysis of the deposited data

How the results depend on the processing

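No member passed an adjusted p of 0.05 under any alternative, and among all genes only the omission of EGFP mouse 3 gave any, with 14 higher and 2 lower (0 to 14 and 0 to 2 over the 6 omissions). The counts of members at limma's unadjusted p under 0.05, 1 higher and 1 lower, became 0 and 4 with the authors' log2 values (0.520% of all genes higher and 10.9% lower), 0 and 0 with 75th percentile scaling (1.94% and 2.35%), 2 and 2 without the filter (2.60% and 2.94%), and 2 and 2 with the methods' t-test (2.63% and 3.09%), which called Naip2 and Cflar higher and not Bok. Array weights gave 3 higher (Bok, Bik and Naip5, beside 5.28% of all genes). Bik was detected in only 1 EGFP mouse, so nothing is read from its call. Detection on all 6 arrays, where Api5, Bik, Bmf and Birc3 drop out, gave 0 lower (2.54%). Array weights and an offset of 50 each called Casp2 lower and not Api5, beside 4.60% and 2.49% of all genes lower. Over the omissions both counts ran between 0 and 3, while 1.18% to 7.26% of all genes were higher and 1.51% to 6.71% lower. The labels give both groups the numbers 1 to 3 and do not say that these pair mice. Deviations of same-numbered mice correlated at 0.30, -0.09 and 0.16, and those of differently numbered mice at -0.27 to 0.10. Whether the numbers pair mice cannot be told from these values, and the main fit used no pairing. With the replicate block 0 members were lower and 1 was higher (2.81% and 2.52% of all genes), none past an adjusted p of 0.05.

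The members' median less that of all genes, -0.04, was 0.0314 with array weights and 0.0464 with the mean of each gene's probes, and ran between -0.0382 and 0.0348 over the omissions. The authors' log2 values, shifted by -0.27 as a whole, turned Mcl1 (-0.19), Casp9 (-0.20), Birc3 (-0.43), Tnfrsf1a (-0.0644) and Apaf1 (-0.21). The mean of a gene's probes turned Bcl2l11 (0.17), Casp2 (0.0526) and Casp9 (-0.0325). Over the omissions Mcl1 ran between -0.11 and 0.20, Bak1 between -0.30 and 0.0071, Casp1 between -0.25 and 0.021, Casp6 between -0.45 and 1.38, Casp8 between -0.42 and 0.12, Casp9 between -0.0216 and 0.21, Xiap between -0.14 and 0.0489, Birc3 between -0.26 and 0.30, and Apaf1 between -0.0003 and 0.12. The cause was not tested. Of the 21 genes given in every mouse by rule or added, 9 kept their sign in every alternative that gave them a value: Bcl2, Bok, Bik, Birc2, Naip5, Api5, Cflar, Ripk3 and Cycs. Of these, Bcl2 came to -0.0221 without EGFP mouse 1, Birc2 to -0.005 with the mean of its probes and Cflar to 0.0138 with the authors' values. Bik passed the filter through the group where it was higher, so its constant sign is not read as support.

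Array weights were lowest for EGFP mouse 3 (0.315) and EGFP mouse 2 (0.635). Dim probes limit Bik, Bmf, Birc3 and Api5, which were not detected on all 6 arrays.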
